A study of Glycine max with 9 samples.

Results

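Genes whose transcript levels stay level across a series serve as denominators when other transcripts are compared. The 98 genes described here are the well expressed genes that varied least over 9 libraries of soybean (Glycine max) root hair cells, out of 56044 gene IDs. They were chosen on the measured values. Genes with a mean of 50 to 1000 FPKM (fragments per kilobase of transcript, also scaled to the number of mapped fragments) over the 9 libraries were taken, 2621 in all. Each library was divided by its median-of-ratios factor, the median ratio of its values to the geometric mean over libraries, taken over the 34672 genes above 0 in all 9. The resulting values are called scaled FPKM. Of the 2621 genes, the 100 with the smallest standard deviation (SD) of log2(scaled FPKM + 1) were kept. From these, 2 of 5 loci that earlier work on these data had listed as soybean reference genes, Glyma.12G020500 at rank 26 and Glyma.12G051100 at rank 82, were set aside. Their small SD is therefore the criterion of choice and not a finding.

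The 3 groups are titled 12h, 24h and 48h, with labelled ages of 276, 288 and 312 hours after sowing and 3 libraries each. All libraries came from 1 genotype, written willam 82 in the labels, grown in an ultrasound aeroponic system, and no treatment is named. Nothing says that the libraries of an age came from separate plants, so the spread between them may be technical. By the labelled ages, 24h and 48h fall at the same hour of the day. In comparisons with 12h, age and hour of the day cannot be told apart.

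Root hairs are outgrowths of single epidermal cells that lengthen at their tip and take up water and nutrients. In legumes they are also the cells through which rhizobia enter the root. Tip growth draws on vesicle traffic, the actin cytoskeleton and wall synthesis, while transcripts of the basic cell machinery are those usually tried as reference genes. A reference gene is level only in relation to the quantity used to scale the libraries, and this choice is part of every value below. The files give locus names alone. RefSeq names for assembly Glycine_max_v4.0 were searched, and 0 of the 56044 IDs were found among them. No function is therefore given for any of the 98 genes, and the labelled cell type was not checked against marker genes.

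The libraries 12h replicate 2 and 24h replicate 3 stood apart in scale factor and in the number of IDs above 0. In 12h replicate 2 the scale factor was 0.599, against 0.798 in 24h replicate 3 and 0.967 to 1.24 in the other 7 libraries. Between 37256 and 42430 IDs were above 0 per library, with the fewest in 24h replicate 3 and 12h replicate 2. The number of reads is not part of the deposited values, so the depth behind each value is unknown and no counting interval is given.

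The SD of the 98 genes ran from 0.0972 to 0.236 on the log2 scale, with a median of 0.203. The other 2523 genes of the same level class had a median SD of 0.676. In scaled FPKM, the coefficient of variation of the 98 genes over the 9 libraries was 6.91% to 18.3%, with a median of 14.4%. The highest library exceeded the lowest by 1.22-fold to 1.80-fold, and by less than 1.5-fold in 39 of the 98 genes. All 9 libraries lay within 20% of the gene's own scaled mean in 25 of them. These figures describe how narrow the chosen set is.

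The limit of the list was not a break in the values. Just inside it lay Glyma.10G243600, Glyma.07G066500, Glyma.04G067900, Glyma.02G000200 and Glyma.06G227200, with SDs of 0.234, 0.235, 0.235, 0.236 and 0.236. Just outside lay Glyma.20G031400, Glyma.10G039000, Glyma.06G003300, Glyma.15G121400 and Glyma.02G254500, with SDs of 0.239, 0.240, 0.243, 0.243 and 0.243. The step over the limit thus went from 0.236 to 0.239.

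The 98 genes sat low in the level class. Their mean level ran from 50.1 to 299 FPKM with a median of 72.2 FPKM, against a median of 98.8 FPKM for the other genes of the class. They made up 56 of 890 genes (6.29%) with a mean of 50 to 75 FPKM, 24 of 476 (5.04%) from 75 to 100 FPKM, 17 of 752 (2.26%) from 100 to 200 FPKM and 1 of 503 (0.199%) above 200 FPKM. The median SD of all genes in these 4 bins was 0.581, 0.604, 0.666 and 0.790. With this scaling the spread on the log2 scale was thus larger in the higher bins, and no other scaling was binned. The only gene of the 98 above 200 FPKM was Glyma.01G008500. The next highest were Glyma.18G062900 (mean 194 FPKM, rank 62) and Glyma.11G175200 (mean 176 FPKM, rank 25). The lowest means belonged to Glyma.09G172700 (50.1 FPKM), Glyma.20G205100 (50.4 FPKM) and Glyma.11G118500 (50.5 FPKM).

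**Figure D1:**
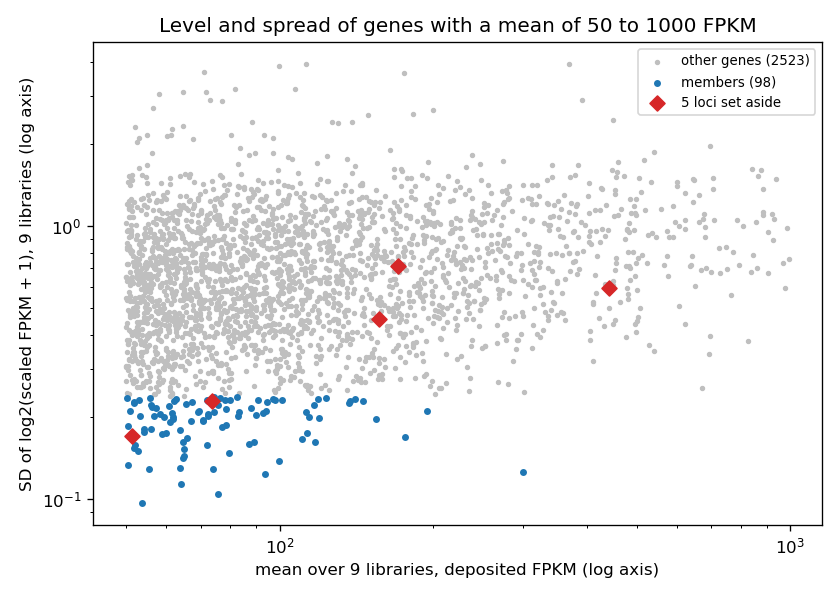
Mean deposited FPKM over 9 libraries (x, log axis) and SD of log2(scaled FPKM + 1) over the same libraries (y, log axis) for the 2621 genes with a mean of 50 to 1000 FPKM. Blue points are the 98 genes, grey points the other 2523 and red diamonds the 5 loci set aside, of which 2 lie among the blue points. The blue points thin out to the right, and 1 of them lies above 200 FPKM.

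The gene of smallest SD was Glyma.05G235500 (SD 0.0972). Its scaled FPKM were 47.3, 47.3 and 52.1 in the 12h libraries, 54.5, 50.7 and 57.7 in the 24h libraries and 55.2, 49.5 and 51.2 in the 48h libraries. The 3 ages overlapped in part, with 24h replicate 3 highest and 12h replicates 1 and 2 lowest. Means per age were 48.9 ± 2.77, 54.3 ± 3.54 and 52.0 ± 2.92 scaled FPKM (SD, n = 3 each). As deposited, the same gene had 54.4, 28.3 and 50.4 FPKM at 12h, 60.3, 54.1 and 46.1 FPKM at 24h, and 67.8, 61.5 and 60.6 FPKM at 48h. On that scale the highest library was 2.39-fold above the lowest, and 12h replicate 2 was the low one.

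Glyma.09G065600 (SD 0.105) had 74.9, 69.2 and 63.5 scaled FPKM at 12h, 80.5, 70.2 and 67.6 at 24h, and 72.5, 76.4 and 76.6 at 48h. Glyma.09G025700 (SD 0.114) had 65.6, 59.3 and 54.8 scaled FPKM at 12h, 70.5, 59.5 and 57.0 at 24h, and 58.8, 65.9 and 60.7 at 48h. In both genes 24h replicate 1 was the highest library and 12h replicate 3 the lowest. The 3 ages overlapped in both, and the age means of the second gene differed by at most 0.054 on the log2 scale.

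Glyma.02G218100 (SD 0.124) had 82.4, 98.6 and 89.9 scaled FPKM at 12h, 97.1, 95.7 and 101 at 24h, and 80.4, 82.3 and 91.9 at 48h. Its 24h libraries all lay above its 48h libraries, and its 12h libraries overlapped both. Glyma.01G008500 (SD 0.126), the most abundant of the 98, had 327, 284 and 253 scaled FPKM at 12h, 313, 277 and 301 at 24h, and 258, 305 and 274 at 48h. Its means per age were 288 ± 36.9, 297 ± 18.6 and 279 ± 23.8 scaled FPKM (SD, n = 3 each), and its 3 ages overlapped.

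**Figure D2:**
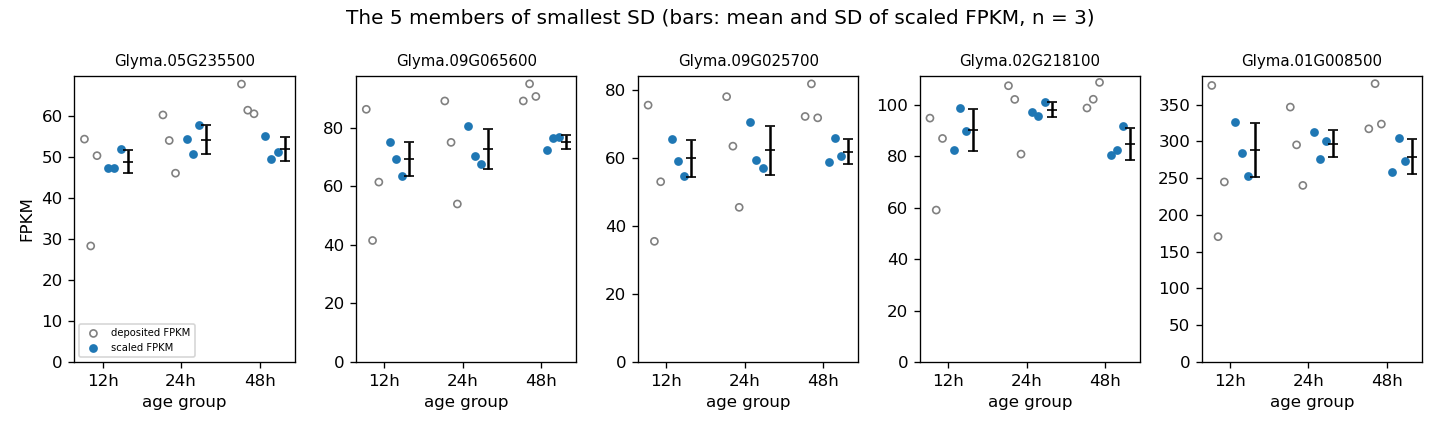
FPKM (y, from 0) by age group (x) for the 5 genes of smallest SD, 1 panel each. Open circles are deposited FPKM and blue points scaled FPKM of the same libraries, and black marks give the mean and SD of the scaled values (n = 3). The lowest open circle in each panel is 12h replicate 2, which moves into the range of the other libraries after scaling.

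Within an age, libraries of the 98 genes differed most at 12h. The median SD of the log2 values was 0.201 for the 12h libraries, 0.144 for 24h and 0.103 for 48h, against 0.873, 0.403 and 0.184 for the other genes of the class (n = 3 libraries per age). The gene of narrowest range was a different one at each age. Glyma.12G195800 had the narrowest 12h range, with 51.6, 51.1 and 51.4 scaled FPKM, then 61.9, 58.5 and 44.9 at 24h and 51.4, 52.3 and 54.5 at 48h. Glyma.20G089400 had the narrowest 24h range, with 49.7, 49.3 and 49.6 scaled FPKM, beside 59.3, 38.0 and 51.4 at 12h. For Glyma.08G126200 the 48h libraries were closest, at 103, 101 and 102 scaled FPKM, whereas its 12h libraries held 99.6, 105 and 156. In each of the 3 genes, at least 1 other age was wider.

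The widest ranges within an age belonged to Glyma.19G110800 at 12h (61.6, 44.5 and 76.2 scaled FPKM), Glyma.08G167600 at 24h (93.2, 69.1 and 115 scaled FPKM) and Glyma.05G035000 at 48h (104, 92.0 and 73.3 scaled FPKM). The age means of Glyma.19G110800 were close, at 60.8 ± 15.9, 56.8 ± 5.69 and 59.8 ± 7.77 scaled FPKM (SD, n = 3 each). That follows from the choice, since a gene this wide within an age could not also differ much between ages and keep a small SD. In 26 of the 98 genes the SD between age means exceeded the pooled SD within ages, against 596 of the other 2523 (23.6%).

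The age means of a gene spread over 0.028 to 0.448 on the log2 scale, with a median of 0.237, against 0.848 for the other genes of the class. The median log2 difference of the 98 genes was 0.038 from 12h to 24h, -0.086 from 24h to 48h and -0.088 from 12h to 48h. Over all 31518 tested genes, those that reached 1 FPKM in 3 libraries or more, the medians were -0.021, -0.015 and -0.023. The sign of these medians depends on the scaling. From 24h to 48h and from 12h to 48h those of the 98 genes were 0.015 and 0.081 with upper-quartile scaling. They were 0.22 and 0.39 as deposited, and 0.46 and 0.38 after quantile normalization. From 12h to 24h the 98 genes had 0.11, 0.20 and -0.066 in the same order of scalings. All tested genes had 0.23 and 0.34 as deposited from 24h to 48h and from 12h to 48h, and 9.13e-05 and 0.051 after quantile normalization. On the scale used for the choice, 54 of the 98 genes had their lowest age mean at 48h, and 46 their highest at 24h. The other genes of the class had their lowest mean at 48h in 73.5% and their highest at 24h in 65.1%. Single differences reached 0.45 for Glyma.01G129400 (24h against 12h) and -0.45 for Glyma.07G066500 (48h against 24h). Glyma.07G066500, the fourth gene from the limit, had 133, 140 and 133 scaled FPKM at 24h and 104, 92.7 and 101 at 48h, with no overlap.

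A fit across all 31518 genes was run for context, with limma's moderated test on log2(scaled FPKM + 1). It cannot test the steadiness of genes that were picked for it. At an adjusted p under 0.05 (Benjamini-Hochberg), it called 0.0159% of tested genes between 12h and 24h, 0% between 24h and 48h, 0.00317% between 12h and 48h and 0.00635% over the 3 ages. None of the 98 was called in any of the 4 (0 of 98 each by limma, the only tool used). At an unadjusted p under 0.05, limma had 0 of the 98 in each, beside 14.9%, 17.4%, 7.69% and 14.9% of tested genes in the same order. After quantile normalization 0, 12, 6 and 4 of the 98 fell under that unadjusted threshold, and as deposited 0, 0, 3 and 0. The moderated standard error of a fold change for these genes was 0.221 to 0.313 on the log2 scale, so the test does not bound single differences tightly. Moderation draws a gene's variance toward that of tested genes of similar level, so these errors do not measure the genes' own spread. For Glyma.06G021600 the error was 0.221, beside a pooled SD within ages of 0.080. The counts of 0 of the 98 depend on these errors too. Without 12h replicate 2 it called 5044 genes (16.1%) for 24h against 12h, and 0 of the 98.

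Counted by overlap instead, 12 of the 98 genes had separate ranges at 12h and 24h, beside 14.5% of tested genes. Of these 12, 9 were higher at 24h (5.75% of tested genes were) and 3 lower (8.79% were). Between 24h and 48h the ranges of 32 of 98 were separate, beside 45.2% of tested genes, with 27 lower at 48h (22.7% of tested genes were) and 5 higher (22.5% were). Between 12h and 48h it was 16 of 98, beside 15.8%, with 15 lower at 48h (7.77% of tested genes were) and 1 higher (8.07% were). Among the other 2523 genes of the class, 8.48% had separate ranges at 12h and 24h, beside 12.2% of the 98. Between 24h and 48h, 61.4% of these others were lower at 48h and 4.12% higher, beside 27.6% and 5.10% of the 98. Between 12h and 48h, 17.6% of them were lower at 48h and 2.18% higher, beside 15.3% and 1.02% of the 98. All these comparisons use the libraries on which the genes were chosen, and nothing further is read from them.

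The steadiness rests on scaling. As deposited, the SD of the 98 genes had a median of 0.359, and their highest library exceeded the lowest by 1.49-fold to 3.20-fold with a median of 2.22-fold. Their median deviation in deposited values was -0.73 on the log2 scale in 12h replicate 2 and -0.24 in 24h replicate 3, and 0.18 to 0.23 in the 48h libraries. The geometric mean of the 98 genes was 45.4 FPKM in 12h replicate 2, 62.5 FPKM in 24h replicate 3 and 69.8 to 88.7 FPKM in the other libraries. Set against its own mean over libraries, this geometric mean divided by the scale factor was 0.959 to 1.06 in all 9 libraries. This closeness follows from the choice of genes on values scaled by that factor. Their summed share of deposited FPKM was 0.329% in 12h replicate 2 and 0.646% to 1.16% in the others.

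**Figure D3:**
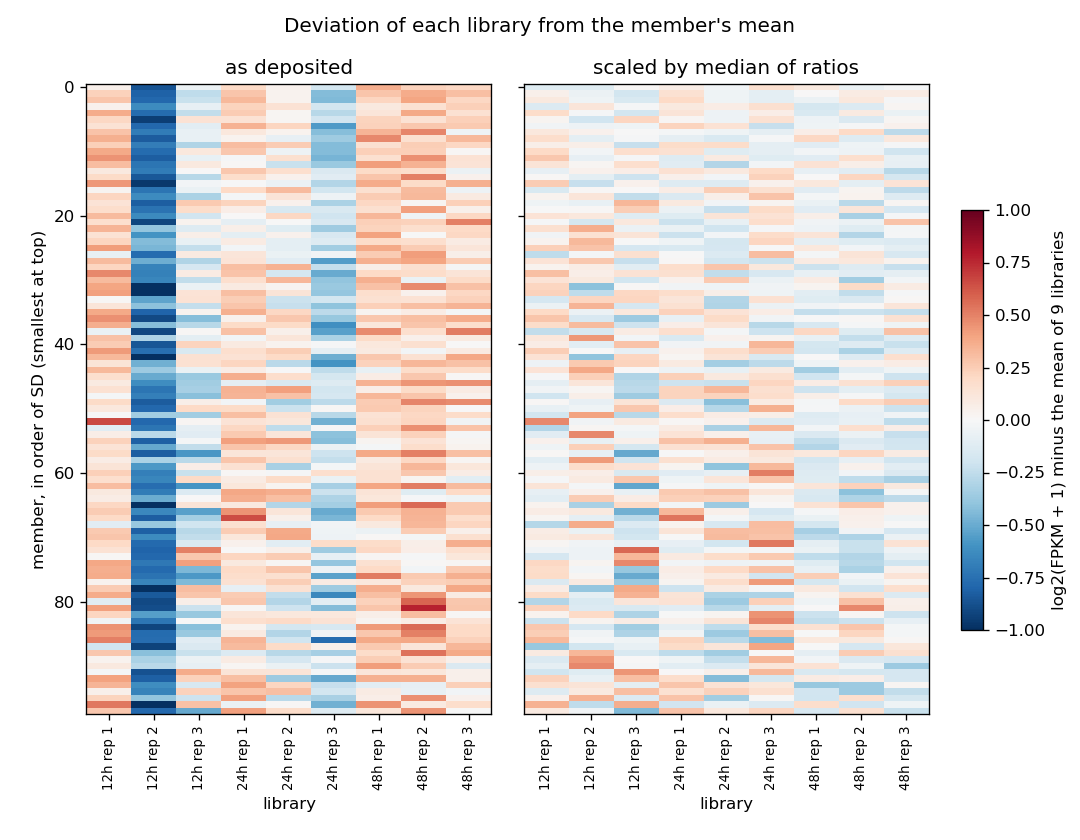
Deviation of each library (x) from the gene's mean over 9 libraries, in log2(FPKM + 1) (colour, -1 to 1), for the 98 genes in order of SD from the top (y). The left panel uses deposited and the right panel scaled values. The left panel shows a blue column in 12h replicate 2 (median -0.73) that is absent on the right (median 0.015).

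The other well expressed genes departed from that factor in most libraries. After scaling, the median deviation of the other 2523 genes of the class was 0.85 on the log2 scale in 12h replicate 2, 0.56 in 24h replicate 3 and 0.28 in 24h replicate 2. It was -0.46 in 12h replicate 3, -0.25 in 12h replicate 1 and -0.41 to -0.29 in the 48h libraries. The 98 genes had median deviations of -0.066 to 0.096 over the 9 libraries, smaller than those of the other genes of the class. In 24h replicate 1 it was 0.074, so libraries of the same age did not deviate alike. Over all tested genes the difference between the 48h and 24h means changed with level. The median log2 difference was 0.12 among genes of 1 to 5 FPKM, -0.014 from 5 to 20 and -0.28 from 20 to 50 FPKM. It was -0.57 from 50 to 100, -0.71 from 100 to 200 and -0.88 from 200 to 1000 FPKM. These are differences of age means over libraries that did not deviate alike. That the 98 genes lie near the median of all genes follows from the rule, since the scaling centres that median and the genes were chosen to stay level on it. Depth and RNA quality are unknown for these libraries, and their part in these differences was not tested.

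**Figure D4:**
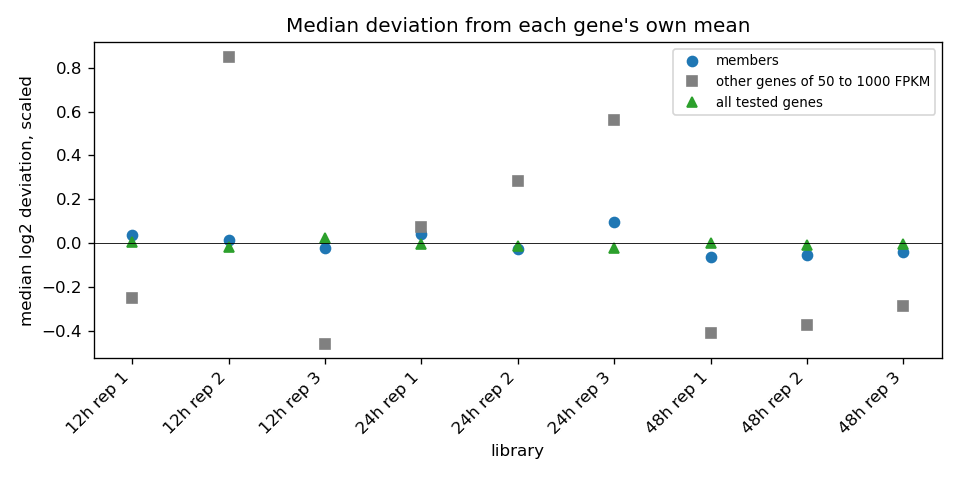
Median log2 deviation from each gene's own mean, scaled values (y), in the 9 libraries (x). Circles are the 98 genes, squares the other 2523 genes of 50 to 1000 FPKM and triangles all 31518 tested genes. The squares range from -0.46 to 0.85, whereas the circles stay between -0.066 and 0.096.

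Which genes count as steadiest changed with the scaling. Ranked on deposited values, 9 of the 98 stayed among the 100 steadiest. After quantile normalization, which gives all libraries the same distribution, 1 stayed. When the scale factors were taken from the 2621 genes of the class alone, 0 stayed, the best of the 98 ranked 251, and their median SD was 0.447 against 0.521 for the other genes of the class. With those factors the 98 genes had a median log2 difference of 0.55 for 48h against 24h, where the other genes of the class had -0.069. Upper-quartile scaling over genes above 0 in all libraries kept 71, and the median SD of the 98 genes was then 0.198.

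The 9 genes that were also among the steadiest as deposited, picked after their values were seen, were Glyma.07G182100, Glyma.11G175200, Glyma.05G238500, Glyma.01G240300, Glyma.06G005600, Glyma.12G064600, Glyma.05G035000, Glyma.09G171600 and Glyma.13G127400. Glyma.07G182100 ranked 11 as deposited, with 143, 112 and 134 FPKM at 12h, 147, 124 and 139 at 24h, and 166, 154 and 145 at 48h. Scaling widened it: 12h replicate 2 went from the lowest library to the highest, at 186 scaled FPKM, and the gene ranked 92. Glyma.06G005600 was the gene that stayed under quantile normalization. Its deposited values were 53.1, 40.2 and 41.7 FPKM at 12h, 61.4, 56.3 and 42.6 at 24h, and 53.7, 58.4 and 51.0 at 48h, and its scaled values ran from 43.1 to 67.0.

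Ratios between the 98 genes need no scale factor, but the genes were chosen for a small SD on scaled values. That choice also limits the SD of their ratios, so the values below add no separate evidence of steadiness. Pairs of other genes of the class were not computed. Over the 4753 pairs, the SD of the log2 ratio of deposited FPKM across the 9 libraries ran from 0.0495 to 0.453, with a median of 0.265. Averaged over its 97 partners, a gene's SD of the log2 ratio was smallest for Glyma.02G218100 and Glyma.01G008500 (0.214 each) and 0.218 for Glyma.05G235500, and largest for Glyma.19G110800 (0.319). The tightest pair was Glyma.09G065600 and Glyma.09G025700, both among the 3 genes of smallest SD. The first exceeded the second 1.14-fold, 1.17-fold and 1.16-fold at 12h, 1.14-fold, 1.18-fold and 1.19-fold at 24h, and 1.23-fold, 1.16-fold and 1.26-fold at 48h. That ratio moved less than either gene alone. Near-identical copies are frequent in the duplicated soybean genome and can share reads. No sequences were used here, so whether this pair is one was not tested.

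The loci set aside were set against the same 98 genes. Since these partners were chosen as level under the factors from all genes, the ratios follow the loci's SD on that scale and add no separate evidence. The mean SD of the log2 ratio was 0.251 for Glyma.12G020500, below the median of 0.266 for the 98 genes, and 0.327 for Glyma.12G051100, just above their highest value of 0.319. It was 0.453 for Glyma.18G290800, 0.602 for Glyma.20G141600 and 0.703 for Glyma.02G276600. Scaled values of Glyma.12G020500 were 56.6, 44.9 and 46.3 FPKM at 12h, 57.2, 39.2 and 46.8 at 24h, and 48.0, 53.9 and 48.2 at 48h, with full overlap of the ages. Those of Glyma.20G141600 were 251, 420 and 243 FPKM at 12h, 486, 728 and 766 at 24h, and 323, 333 and 389 at 48h, and its 24h libraries lay above all others. The order of these loci turned with the scaling. With factors from the 2621 genes of the class, Glyma.18G290800 ranked 137 (SD 0.224) and Glyma.02G276600 ranked 607, whereas Glyma.12G020500 ranked 1399 and Glyma.12G051100 ranked 1773. With factors from all genes these ranks were 698, 1468, 26 and 82.

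To read steadiness in a library that played no part in the choice, the 100 steadiest genes were chosen again on 8 libraries by the same rule, less any of the 5 loci, and read in the ninth. Their median absolute deviation from the mean of the other 8 was 0.16, 0.30 and 0.37 on the log2 scale for 12h replicates 1, 2 and 3. It was 0.14, 0.28 and 0.32 for 24h replicates 1, 2 and 3, and 0.13, 0.19 and 0.15 for 48h replicates 1, 2 and 3. The other genes of the class deviated by 0.41, 0.92 and 0.75 at 12h, by 0.21, 0.44 and 0.66 at 24h and by 0.51, 0.46 and 0.38 at 48h. The chosen genes lay closer in all 9 unused libraries, with the smallest gap in 24h replicate 1. Each unused library was read on the scale from all genes, on which the other genes of the class shifted together. Their median deviation there ran from -0.46 in 12h replicate 3 to 0.85 in 12h replicate 2. The gap is therefore not separate from the scaling. Within 1.5-fold of the mean of the other 8 lay 72.7% of the chosen genes in 12h replicate 3, 76.5% in 24h replicate 3 and 80.8% in 12h replicate 2. In the other 6 libraries 87.9% to 100% did. The share of the other genes ran from 35.3% in 12h replicate 2 to 87.5% in 24h replicate 1. No test was made, since genes of a library are not independent.

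**Figure D5:**
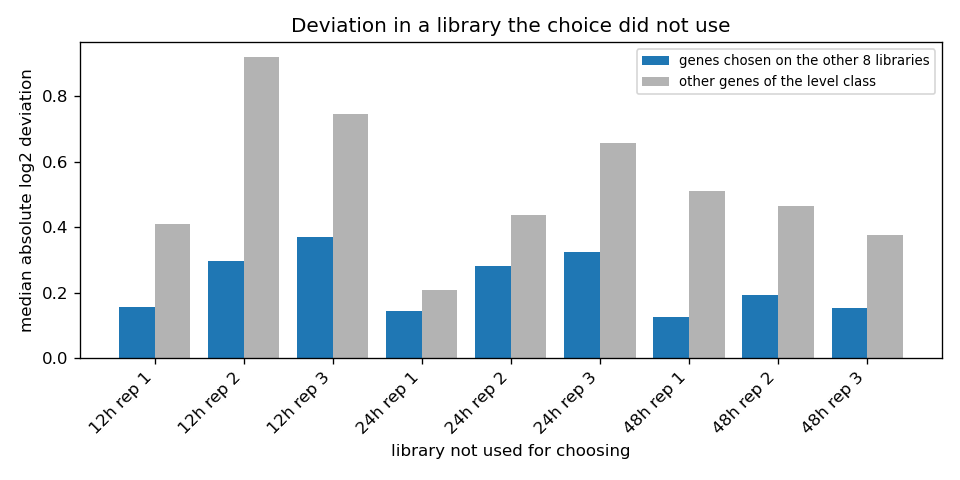
Median absolute log2 deviation (y, from 0) in a library not used for choosing (x). Blue bars are the 98 to 100 genes chosen on the other 8 libraries and grey bars the other genes of the level class. The blue bar is the lower in all 9 libraries, and it is highest in 12h replicate 3 (0.37).

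A whole age was also left out of the choice and read on the same scale, so the same limit holds. Genes chosen on the 24h and 48h libraries shifted by a median of 0.16 at 12h (0.28 for the other genes of the class), and their SD within 12h was 0.332 (0.838 for the others). Chosen without the 24h libraries, they shifted by 0.28 at 24h (0.52 for the others), with an SD of 0.259 (0.396). Chosen without the 48h libraries, the shift was 0.27 at 48h (0.60), and the SD was 0.109 (0.184). Of the 98 genes, 46, 47 and 65 were chosen again in these 3 lists.

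Of the 98 genes, 43 were kept in each of the 9 lists that left out 1 library, among them the 5 of smallest SD. The fewest were kept without 12h replicate 2 (61), 12h replicate 3 (65) and 24h replicate 3 (65), and 75 to 94 were kept without any other library. Glyma.09G172700, of lowest mean, was kept in 2 of these 9 lists, and Glyma.20G205100, of rank 9, in 5, both with means close to the lower limit of 50 FPKM.

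The locus names place the 98 genes, of 2621 in the class, on all 20 chromosomes. Their share of the class was highest on chromosome 9 (12 of 127, 9.45%), then on chromosome 1 (6 of 104, 5.77%) and chromosome 20 (6 of 106, 5.66%). It was 10 of 194 (5.15%) on chromosome 8, and lowest of the 20 on chromosome 3 (1 of 141, 0.709%). Neighbours were not counted for the other genes of the class. Among the 98, 4 pairs of successive members lay within 10 places of each other in the order of loci. They were Glyma.08G167100 and Glyma.08G167600, Glyma.08G167600 and Glyma.08G168200, Glyma.10G144600 and Glyma.10G144800, and Glyma.14G211000 and Glyma.14G211700.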

How the data were processed

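Messenger RNA libraries were made with the Truseq RNA-seq v2 kit, per the labels' protocols. The authors deposited FPKM for 56044 IDs and 9 libraries in 1 table. Per the submitters' processing notes, the tools were TopHat2 2.1.0 and Cufflinks 2.2.1. For the genome build and the annotation, no source used here gives a name. The table's own name refers to tissue culture, whereas all labels say root hair cells, and the labels were followed. A near-identical gene copy can share reads, which makes separate values uncertain. Depth is unknown. No 2 columns were identical.

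From the deposited FPKM, scale factors, SDs, lists and ratios were computed with Python 3.11.15, numpy 2.4.6 and pandas 2.3.3. The test was limma 3.58.1 (R 4.3.3) with an intensity trend on log2(scaled FPKM + 1), a pseudocount of 1, a term per age and all 9 libraries, over 31518 genes, with calls at an adjusted p under 0.05. Scaled values were used because the choice of genes uses them. A fold change on this scale understates that of low genes. The scripts were tested on simulated data. The genes and lists were chosen with earlier results of these data known. Named genes are the 5 smallest and 5 largest SDs, the 5 just outside, the 3 highest and 3 lowest means, and the narrowest and widest range per age. Others named were picked after their values were seen. Planned classes by gene description, sequence features and cell type markers could not be used, as 0 IDs matched a name. Alternatives were other scalings, pseudocounts, filters, measures of spread, level limits, a replicate block and leaving out each library. Scale factors from the 2621 genes alone, and other settings for the reading of unused libraries, were chosen after seeing the data.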

Additional observations from a re-analysis of the deposited data

How the results depend on the processing

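None of the 98 genes was called in any contrast or over the 3 ages under any of the 15 alternative fits. These were limma with other scaling, pseudocount, filter, replicate block or 1 library left out. The 98 genes were chosen for a small SD in the same libraries, so this does not test them. In the order 24h against 12h, 48h against 24h, 48h against 12h and 3 ages, all libraries gave 5, 0, 1 and 2 of 31518 genes. Of the same 31518, deposited values gave 12, 0, 37 and 9, quantile normalization 5, 0, 9 and 4, and a pseudocount of 0.1 gave 6, 2, 11 and 7. Without a filter it was 2, 0, 2 and 1 of 45890. The filter at 5 FPKM gave 4, 0, 1 and 2 of 19245. Leaving out 1 library gave 1 to 5044, 0 to 0, 1 to 30 and 0 to 2217 genes. The 5044 (16.1%) and 2217 (7.07%) were reached without 12h replicate 2, and 30 (0.096%) without 24h replicate 2. The replicate block gave 2, 0, 1 and 1 genes. Same-numbered libraries had correlations of -0.068 to 0.37 in their deviations, over 0.1 in 1 of 9 pairs. Libraries of different number had -0.46 to 0.26. The numbers were not taken as pairs in the main fit, and these values do not settle whether they are.

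Of the 98 genes, the list kept 0 with scale factors from the 50 to 1000 FPKM genes, 9 as deposited, 1 after quantile normalization, 60 by the SD within ages, 39 by the SD of the 3 age means and 22 with a lower level limit of 20 FPKM, which ranked 6336 genes. It kept 61 to 94 with 1 library left out, and 71 to 98 under the other 5 alternatives. The median SD of 0.203 became 0.447 with scale factors from the 50 to 1000 FPKM genes, 0.359 as deposited and 0.390 after quantile normalization. With upper-quartile scaling it was 0.198, with a pseudocount of 0.1 it was 0.206, and with 1 library left out it was 0.187 to 0.209. The median over the 9 unused libraries of the deviation read in each was 0.19. It was 0.18 after quantile normalization and 0.19 with a pseudocount of 0.1. The other genes of the class are not set beside these values, so they do not show a gap under those settings. Genes were chosen again under each setting. Quantile normalization kept 1 of the 98 in the full list, so 0.18 does not describe these 98 genes. Causes were not tested. Depth is unknown and limits every value here.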
